A study of Mus musculus with 12 samples.

Results

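The 4 plates of cells labelled AtT20 were compared with the 8 plates of the other 2 mouse cell lines of the study, 4 of BV2 and 4 of N18, taken as one group in which each line had equal weight. Plates were chosen by their labels alone, so the comparison holds 4 of the 12 arrays on one side and 8 on the other. The AtT20 line began as a tumor of the mouse pituitary and serves as a neuroendocrine model, BV2 is a mouse line used as a model of microglia, and N18 is a mouse neuroblastoma line used as a model of neurons. All lines were grown in DMEM with fetal bovine serum and antibiotics, and no plate was treated. RNA of each plate was extracted separately and hybridized to its own single-color NimbleGen array. Each line is 1 stock of cells, so the spread between plates says nothing of other stocks. The slide of each array is not given in the sources used here, so a slide effect and a line effect cannot be told apart.

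AtT20 cells are a model of the corticotroph, the cell of the anterior pituitary that releases adrenocorticotropic hormone. The transcription factor Tbx19, also called Tpit, acts with Pitx1 and Neurod1 to drive the gene Pomc. The precursor protein made from Pomc is cut by the convertase Pcsk1 into adrenocorticotropic hormone, which is stored in granules with granins and released when hypothalamic hormones bind Crhr1 or Avpr1b. The study set out to list the receptors and signaling proteins of lines in which receptors are expressed, and the question asked here was which cell identity the plates labelled AtT20 support.

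The array held 72000 probes for 25631 targets, most of them with 3 probes, and the deposited value of each probe is the log2 of its intensity. Through their identifiers 69.4% of the targets could be named, which gave 17274 genes. The other 7854 targets stayed without a name, and 25126 genes and unnamed targets with 2 or more probes were tested. The level of a gene is its mean log2 intensity over its probes minus the mean of 30 probes of 10 seminal proteins on the same plate, genes that none of these lines should express. A probe was called present in a line when its mean over 4 plates passed a threshold, the mean plus 2 SD of the seminal probes of each plate. The word difference is kept for the log2 difference between plates labelled AtT20 and the mean of BV2 and N18, fitted in limma after quantile normalization of the 12 arrays. A gene was called higher or lower when all of its probes moved one way and the largest p among them stayed under 0.05 after Benjamini-Hochberg adjustment over all 25126.

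The arrays of the plates labelled AtT20 stood apart from the other 8. Their median log2 intensity was 10.85, 10.85, 11.5 and 10.86, where BV2 had 9.9 to 10.28 and N18 10.1 to 10.54. Their interquartile range was 0.5, 0.78, 0.38 and 0.61, against 1.28 to 1.73 on BV2 and 1.91 to 2.21 on N18, so neither measure overlapped with the other lines. Over the 72000 probes, Pearson's r was 0.9 to 0.95 between pairs of plates labelled AtT20, and only 0.4 to 0.5 between these plates and any BV2 or N18 plate. BV2 and N18 plates correlated with each other at 0.79 to 0.82. These correlations are across probes, which share arrays and are not independent replicates. Plate 3 had the highest median and the narrowest range of its line. Without plate 3 the counts of called genes given below became 2632 higher and 2585 lower. Whether the RNA on the 4 arrays came from the labelled line, and whether it matched the mouse probes as RNA of BV2 and N18 did, was not tested. Every level, fold and missing marker given for them is therefore one of the plates as labelled, and not of AtT20 cells in general.

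**Figure D1:**
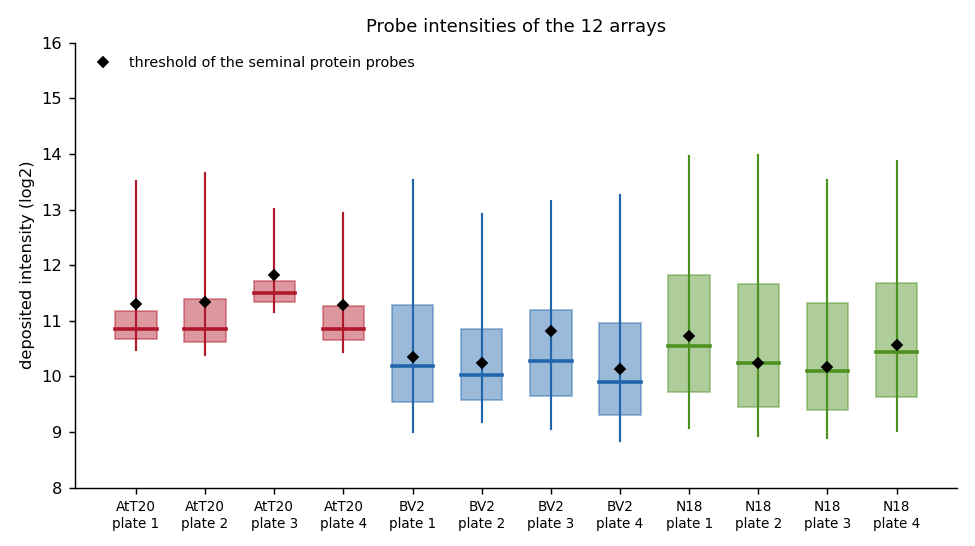
Deposited log2 intensity of all probes on each of the 12 arrays. Boxes span the quartiles, the thick line is the median, thin lines run from the 5th to the 95th percentile, and diamonds mark the threshold set by the seminal protein probes. The boxes of the plates labelled AtT20 are narrow, with interquartile ranges of 0.38 to 0.78. The threshold lies above the median on each of the 12 arrays.

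The 3 genes that mark a corticotroph did not stand out on the plates labelled AtT20. Pomc had levels of 0.25, 0.56, -0.06 and 0.38 on these plates, 0.59 to 0.84 on BV2 and 0.42 to 0.6 on N18. The plates labelled AtT20 thus lay below every BV2 plate and overlapped with the N18 plates. Of the 3 Pomc probes, 1 was present on the plates labelled AtT20 and 1 on BV2. The difference of Pomc after quantile normalization was 0.40, with single probes from 0.02 to 1.01, and the gene was not called (adjusted p = 1, limma). Without normalization it was 1.07 and was called higher (adjusted p = 0.00045), relative to the seminal proteins it turned to -0.33, and with a gene's probes averaged it was called at 0.40 (adjusted p = 0.0165). In bulk RNA, fewer cells of a type and less RNA per cell cannot be told apart.

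Tbx19 had levels of -0.06, 0.06, 0.05 and 0.04 on the plates labelled AtT20. Its levels were 1.19 to 1.54 on BV2 and 1.39 to 1.55 on N18. The plates labelled AtT20 lay below all 8 others, no probe of Tbx19 was present on them, and all 3 were present in both other lines. The difference was -0.73, but its probes ran from -1.43 to -0.01, and the largest of their p values did not pass (adjusted p = 1, limma). Relative to the seminal proteins Tbx19 was called lower by -1.41 (adjusted p = 7e-07), and it was also called lower when 2 probes had to pass (adjusted p = 0.000234).

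Pcsk1 had levels of 0.09, 0.08, 0.16 and 0.19 on the plates labelled AtT20, -0.22 to 0 on BV2 and -0.2 to -0.06 on N18. The groups did not overlap, yet no probe of Pcsk1 was present in any line. Its difference was 0.78 (SE of a probe 0.19) and passed the test (adjusted p = 0.0312, limma). It no longer passed relative to the seminal proteins, where the difference was 0.26 (adjusted p = 0.724). It also missed the threshold without plate 2, 3 or 4 of AtT20, plate 1 or 3 of BV2 or plate 2 of N18, at adjusted p values of 0.0529, 0.0842, 0.0711, 0.0607, 0.0505 and 0.0543.

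**Figure D2:**
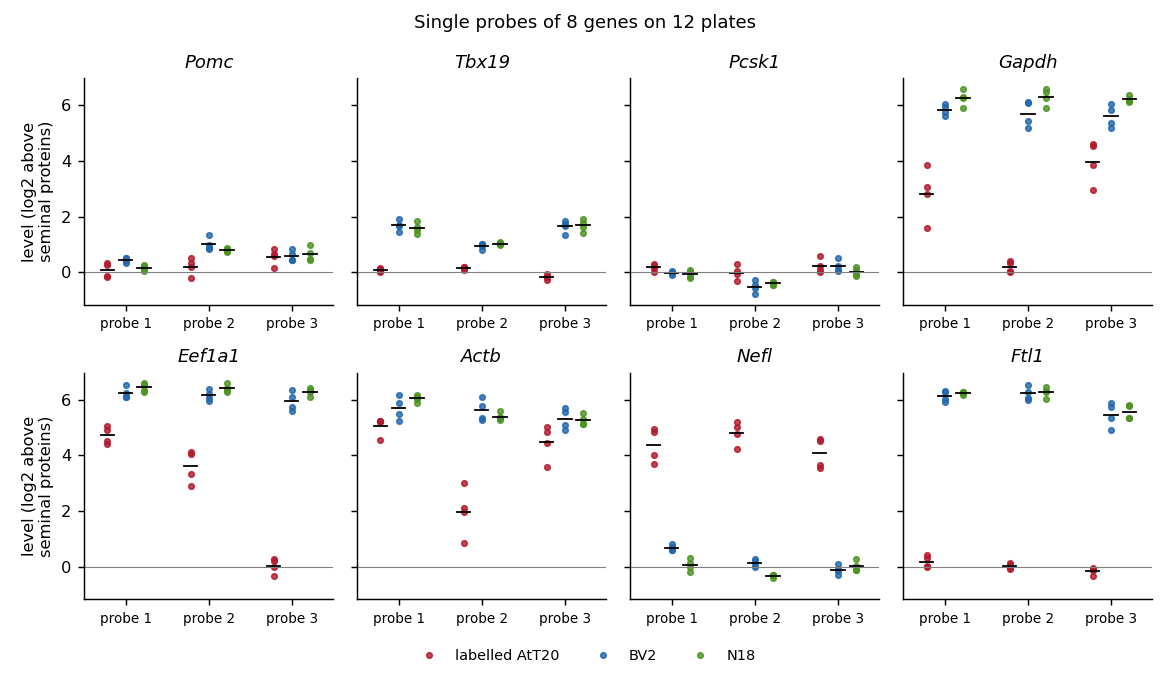
Level of each probe of 8 genes on each plate, in log2 above the mean of the seminal proteins on the same plate. Each point is 1 plate, black bars are means of 4 plates, and probes are ordered by the number in their identifier. The probes of Pomc, Tbx19 and Pcsk1 lie near 0 on the plates labelled AtT20. Those of Gapdh, Eef1a1 and Actb lie together in BV2 and N18 and far apart on the plates labelled AtT20, while the 3 probes of Nefl are all high there and those of Ftl1 all near 0.

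Over the whole corticotroph list of 8 genes, none had every probe present on the plates labelled AtT20. On those plates 3 genes had some probes present and 5 had none. After quantile normalization 4 were called higher and 1 lower, where 9.93% of all genes and targets were called higher and 10.0% lower. Among the higher ones were Pcsk1, Neurod1 (0.56) and Pitx1 (1.03). Of these 3 only Neurod1 was called under all 4 scalings used here (quantile, none, relative to the seminal proteins, and equal median and range). No probe of Neurod1 was present in any line, and 1 of 3 probes of Pitx1, a homeobox factor of the early pituitary, was present on the plates labelled AtT20. Crhr1, the receptor for corticotropin-releasing hormone, was lower by -0.66 (adjusted p = 0.0232), with every probe present on N18 and none on the other plates. Neurod1 lost its call without plate 1 or 4 of AtT20 (adjusted p = 0.0675 and 0.0569), and Crhr1 without plate 2, 3 or 4 of AtT20 (0.116, 0.0559 and 0.118). Crhr1 also lost it without normalization (-0.16) and with equal median and range (adjusted p = 0.0569, limma). It did so as well with normexp, a separate spread for each line, or BV2 and N18 as 1 group (adjusted p = 0.111, 0.255 and 0.904). Pitx1 lost its call without any one of 11 of the 12 plates, at adjusted p values of 0.055 to 0.117. The median difference of the list was 0.58, beside 0.13 over all genes and targets. Against BV2 alone 3 members were higher and 0 lower, where 7.71% and 8.86% of all genes and targets were. Against N18 alone 1 was higher and 1 lower, where 8.86% and 9.93% were.

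Genes of the other pituitary lineages gave a like picture. None of the 14 had every probe present in any of the 3 lines, 8 had some probes present on the plates labelled AtT20, and 5 were called higher and 0 lower, beside 9.93% and 10.0% over all genes and targets. The 5 were Gh, Prl, Lhb, Pou1f1 and Sox2. Under all 4 scalings 4 of the 14 were called higher, and 2 of the 8 corticotroph genes, beside 2.46% over all genes and targets. The growth hormone and prolactin genes Gh and Prl had no probe present in any line, and differed by 0.98 and 0.62. Pou1f1, the factor that drives both hormones, differed by 1.35 with 1 of 3 probes present, and lost its call without plate 2 of AtT20 (adjusted p = 0.0712). With a separate spread for each line Pou1f1 lost it too (adjusted p = 0.184, limma). Lhb fell to 0.02 relative to the seminal proteins and was not called there. Sox2, a factor of stem and neural progenitor cells, had levels of 1.69, 1.64, 0.98 and 1.25, with -0.32 to 0.16 on the other 8 plates. It was present by 2 of 3 probes on the plates labelled AtT20 and by none elsewhere. Since the gene was below the threshold in both other lines, its fold can only be bounded, and it was at least 3.02-fold higher (adjusted p = 0.000166, limma).

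Of the 14 granule genes that a corticotroph would hold, 4 were lower than on N18 and 0 higher. Over all genes and targets 9.93% were lower than on N18 and 8.86% higher. On the plates labelled AtT20 no member of the 14 of the regulated secretion list had every probe present, nor on BV2, while 8 had on N18. Chgb, a granin that fills secretory granules, had levels of -0.25, -0.1, -0.14 and -0.01 on the plates labelled AtT20, 0.15 to 0.18 on BV2 and 5.49 to 6.08 on N18. It was called lower against the mean of both lines, with probes from -2.89 to -2.39. No fold from that mean is bounded, since Chgb had no probe present on BV2 either. Chgb was lower than N18 by -5.09 (adjusted p = 1.39e-10), while the difference from BV2 was -0.18 (adjusted p = 1). The other members called lower were Scg2, Scg3 and Ptprn, at -1.11, -1.40 and -1.54, each with no probe present on the plates labelled AtT20 and all 3 on N18. Ptprn2, a phosphatase-like protein of granules, was called higher by 1.19, with 1 of 3 probes present in each line, and lost that call relative to the seminal proteins (0.27, adjusted p = 1). Against the mean of both lines the list thus had 4 lower and 1 higher, beside 10.0% and 9.93% over all genes and targets. Against BV2 alone 2 of the list were higher and 0 lower, beside 7.71% and 8.86%. With the 8 arrays of BV2 and N18 as 1 group, Chgb, Scg2, Scg3 and Ptprn lost their calls (adjusted p = 0.199, 0.821, 0.771 and 0.463), and Scg2 lost its call without normalization as well (-0.47, adjusted p = 0.31). Summed over the list, levels came to 3.86 to 7.09 for the plates labelled AtT20, to 3.49 to 5.31 for BV2 and to 35.01 to 38.99 for N18.

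The lists that belong to the other lines met their labels there and not on the plates labelled AtT20. Of the 14 microglia and macrophage genes, 8 had every probe present on BV2 and 0 on the plates labelled AtT20 or on N18. All 8 members that were called were lower, where 10.0% of all genes and targets were called lower and 9.93% higher. Cd14, a receptor for bacterial lipopolysaccharide on macrophages, had levels of 0.1, 0.08, -0.26 and -0.08 on the plates labelled AtT20, 5.29 to 5.83 on BV2 and -0.11 to 0.15 on N18, which overlapped with the plates labelled AtT20. The lysozyme gene Lyz2 and the myeloid factor Spi1 differed from the mean of both lines by -2.79 and -2.19. Neither had every probe present on N18, so no fold from that mean is bounded. With BV2 and N18 as 1 group Cd14, Lyz2 and Spi1 lost their calls (adjusted p = 0.498, 0.237 and 0.207). Against N18 alone none of the list was lower and 1 was higher, where 9.93% and 8.86% of all genes and targets were. Of the 10 sympathetic neuroblast genes, 8 had every probe present on N18, 1 on BV2 and 1 on the plates labelled AtT20. That 1 was Hand2, a factor of sympathetic neurons, with levels of 1.63, 2.1, 0.68 and 1.51, against 0.37 to 0.62 on BV2 and 3.65 to 4.15 on N18. Its probes disagreed in direction against the mean of the lines, from -0.41 to 2.01, and it was higher than on BV2 by 2.02 (adjusted p = 5.52e-06).

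The neuronal list had the most members with every probe present on the plates labelled AtT20 of the 22 cell type lists, 3 of 12, beside 8 on N18. Over all genes and targets the shares were 5.38% on the plates labelled AtT20 and 30.8% on N18. The threshold stood 0.37 to 0.55 above the seminal mean on the plates labelled AtT20, and 0.64 to 1.08 above it on the other plates, so a probe needed less there to be called present. The 3 were Nefl and Nefm, which code for the light and medium neurofilament proteins, and Elavl3, which codes for a neuronal RNA-binding protein. Nefl had the largest upward difference of the leading genes described below. Nefm had levels of 2.88, 2.96, 1.92 and 2.03, with 1.3 to 1.96 on the BV2 and N18 plates, and plate 3 of AtT20 fell among these. Its probes differed by -0.1 to 3.31, so it was not called (adjusted p = 1). Elavl3 levels were 0.39, 1.15, 0.44 and 0.83 on the plates labelled AtT20, the first of them below that plate's threshold of 0.53, and 3.25 to 3.95 on N18. The other 9 neuronal genes had 0 or 1 probe present, among them Tubb3, Map2, Snap25 and Syt1. Ina, another intermediate filament gene of neurons, and Stmn2, which binds tubulin in growing axons, were called lower, at -1.29 and -1.12, and both lost the call with BV2 and N18 as 1 group (adjusted p = 0.384 and 0.576).

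Over all 22 cell type lists, 7 of 221 genes (3.2%) had every probe present on the plates labelled AtT20, beside 22 on BV2 and 48 on N18. Over all genes and targets the shares were 5.38% on the plates labelled AtT20, 22.8% on BV2 and 30.8% on N18. The members not yet named were Gata1, a factor of red cell precursors, and Col1a1 and Col1a2, the chains of type I collagen. Gata1 levels were 0.97, 1.7, 1.03 and 1.64, so plates 1 and 3 lay below all BV2 and N18 plates, at 1.47 to 1.77, and the others among them. Its difference of 1.32 after quantile normalization turned to -0.26 relative to the seminal proteins. Col1a1 levels were 1.88, 2.18, 1 and 1.21, above BV2 at 0.39 to 0.66 and overlapping with N18 at 1.16 to 1.8. Col1a2 levels were 0.19 to 0.96, overlapping with both lines, and its call was lost without plate 4 of AtT20 (adjusted p = 0.0606). Relative to the seminal proteins neither collagen gene was called, with differences of 0.56 for Col1a1 and 0.39 for Col1a2 (adjusted p = 1 for both). Among fibroblast genes, 2 of 14 had every probe present on the plates labelled AtT20. Of the same 14, 4 were called higher and 1 lower, beside 9.93% and 10.0% over all genes and targets.

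No list reached the share of members present in every probe that the matching lists reached in BV2 and N18. The share over all genes and targets was also lower on the plates labelled AtT20, 5.38% beside 22.8% on BV2 and 30.8% on N18. Shares of lists can therefore not be set against each other directly. Called higher and lower in turn, counts were 0 and 1 of 11 T lymphocyte genes, 2 and 0 of 10 B lymphocyte genes, 1 and 0 of 11 erythroid, megakaryocyte and mast cell genes, 2 and 0 of 7 smooth muscle genes and 1 and 0 of 11 skeletal and cardiac muscle genes. They were 3 and 0 of 12 epithelial genes, 2 and 1 of 11 endothelial genes, 3 and 0 of 10 pancreatic islet genes, 1 and 0 of 9 glia genes and 0 and 1 of 6 adipocyte genes. Kidney and steroid-producing cell genes had 1 higher and 0 lower of 8 and of 7. None of the 8 hepatocyte, 5 melanocyte or 9 pluripotent and germ cell genes was called by the limma test with adjusted p values. Apart from Gata1, no member of these lists had every probe present on the plates labelled AtT20. Over all 22 lists 32 of 221 members were called higher and 21 lower, where 9.93% and 10.0% of all genes and targets were. Of the 32 called higher, 9 had no probe present there, 19 had some and 4 had all, and 10 were called under all 4 scalings. These 10 were 4 genes of other pituitary lineages, 2 corticotroph, 2 fibroblast and mesenchyme, 1 neuronal and 1 epithelial. Of the 21 called lower, 9 were called under all 4 scalings. Over all genes and targets 2.46% were called higher and 3.56% lower under all 4. Of the Y chromosome genes matched, 3 of 4 were called higher, none of them with every probe present. Eif2s3y was at least 1.91-fold higher, by 1 of 3 probes.

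**Figure D3:**
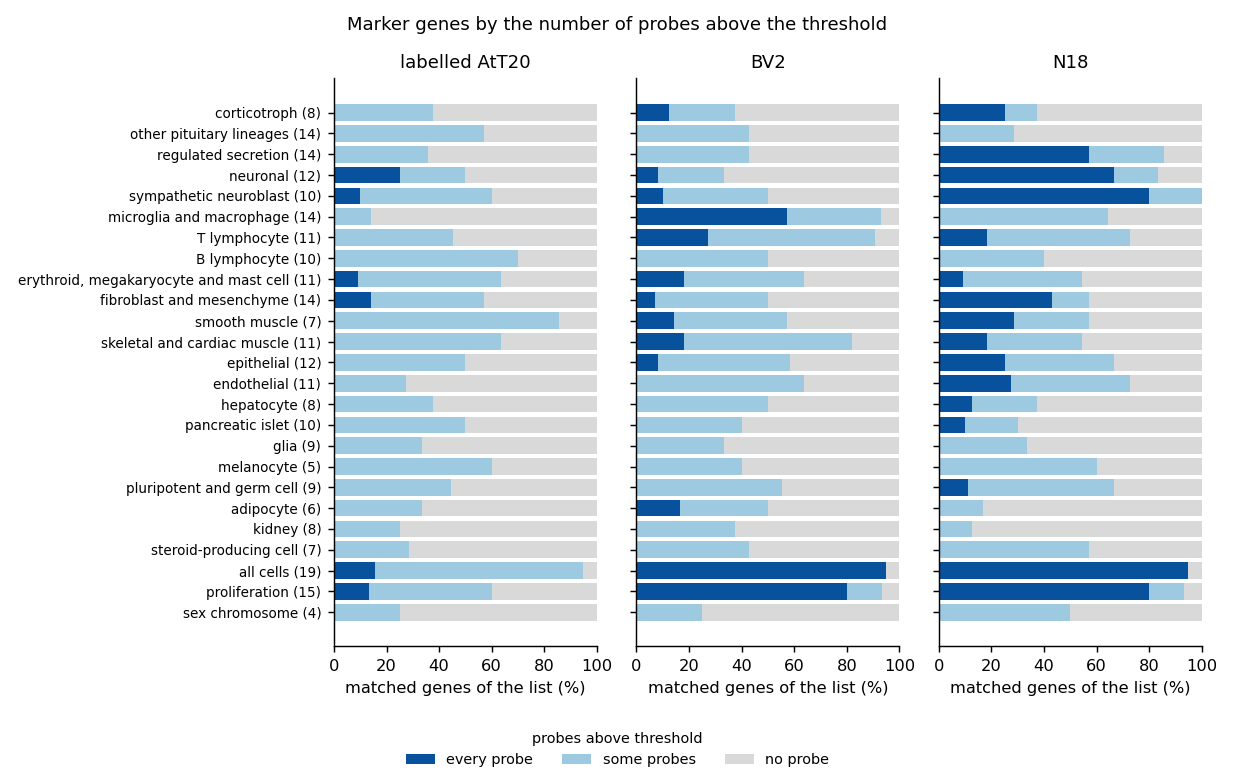
Share of the matched genes of each list that had every probe, some probes or no probe above the threshold in each line, with the number of matched genes in parentheses. Microglia genes fill in on BV2 and neuronal, neuroblast and secretion genes on N18. On the plates labelled AtT20 no list exceeds 3 of 12 genes with every probe present, and 15 of the 19 genes of all cells have only some.

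Genes that every cell uses were present only in part on the plates labelled AtT20. Of the 19 genes of that list, 18 had every probe present on BV2 and on N18. On the plates labelled AtT20 3 had every probe, Actb and Tpt1 among them, 15 some, and 1 none. The gene with none was Rplp0, which had no probe present in any line. Gapdh, an enzyme of glycolysis, gives the clearest case. Its first probe had levels of 2.82, 3.86, 1.59 and 3.05 on the plates labelled AtT20, its second 0.05, 0.4, 0.01 and 0.32, and its last 4.6, 4.54, 2.95 and 3.84. The same 3 probes had mean levels of 5.84, 5.7 and 5.61 on BV2, and 6.26, 6.32 and 6.21 on N18 (n = 4 plates each, SD of 0.11 to 0.47). The second probe was thus at the level of the seminal proteins on 4 of 4 plates labelled AtT20 while its neighbours were high on the same arrays. Eef1a1, an elongation factor of translation, had mean probe levels of 4.73 ± 0.31, 3.61 ± 0.59 and 0.03 ± 0.28 (SD, n = 4). Actb, the cytoplasmic actin, had 1.98 and 4.48 for its second and last probe, while its first was at the upper limit of the scanner on all 4 plates, so that its level of 5.06 is a lower bound. Tpt1 had 1.6, 4.59 and 0.77.

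After quantile normalization 8 of the 19 genes of all cells were called lower and 0 higher, beside 10.0% and 9.93% over all genes and targets. Gapdh was lower by -2.53, Eef2 by -3.30, Rps3 by -3.41 and Ywhaz, a 14-3-3 protein, by -4.26. Of the 8, Rps3 and Ywhaz were called lower under all 4 scalings. With the median and the range of each array set equal, Gapdh turned to 1.43, Eef1a1 to 2.53 and Tpt1 to 1.36. Tpt1 also lost its call without plate 1 or 4 of AtT20 and without any of 7 of the other 8 plates, at adjusted p values of 0.0582 to 0.158. Of 15 genes of dividing cells, 12 had every probe present on BV2 and on N18, and 2, Mcm6 and Plk1, on the plates labelled AtT20. In this list 4 were called lower and 1 higher, beside the same 10.0% and 9.93%. Top2a, the topoisomerase of mitotic cells, had levels of 0.12, 0.1, -0.21 and 0.01 on the plates labelled AtT20, 3 to 3.45 on BV2 and 5.26 to 5.6 on N18. It was at least 5.39-fold lower (adjusted p = 1.26e-08). Plk1, a mitotic kinase, had high levels everywhere, from 3.43 to 4.87 for the plates labelled AtT20, from 4.12 to 4.62 for BV2 and from 4.85 to 5.4 for N18, and its difference of 0.77 turned to -0.45 relative to the seminal proteins.

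This disagreement between probes ran through the array in presence and in differences. Of 3763 targets with 3 probes that were all present on BV2 and on N18, the plates labelled AtT20 had all 3 probes present for 13.7%, 2 for 26.0%, 1 for 32.9% and none for 27.4%. Of 4470 targets with all 3 probes present on BV2, N18 had all 3 for 84.2% and the plates labelled AtT20 for 12.1%. Of 6259 with all 3 present on N18, BV2 had all 3 for 60.1% and the plates labelled AtT20 for 10.2%. In the other direction, of 851 targets with all 3 probes present on the plates labelled AtT20, N18 had all 3 for 75.2% and BV2 for 63.6%. Across 20740 targets with 3 probes, the differences of 2 probes of a target correlated at 0.32 to 0.42 for AtT20 against the other lines and at 0.8 to 0.85 for N18 against BV2. The median range of a target's probe differences was 1.13 in the first comparison and 0.35 in the second, as a description with no test. These differences were taken after quantile normalization. The range of a gene's probe levels, not normalized between arrays, was taken for 4919 genes with every probe present on BV2 and N18. Its median was 0.96 on the plates labelled AtT20, 1.04 on BV2 and 1.05 on N18. Its upper quartile was 2.14, 1.64 and 1.68. All probes shared a sign for 49.2% of genes and targets for AtT20 against the other lines and for 64.2% for N18 against BV2. That order depended on the scaling. Relative to the seminal proteins the shares were 57.6% and 67.4%, but without normalization they were 72.4% and 67.3%, so the order turned.

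Which probe of a target was present also had an order. Among the same 3763 targets, the probe with the lowest number in its identifier was present on the plates labelled AtT20 for 48.4%, the middle one for 42.3% and that with the highest number for 35.2%. The fall held on each plate, from 47.8% to 33.4%, 53.1% to 39.8%, 40.4% to 29.8% and 47.5% to 36.8%. On N18, among targets full on BV2, the shares were 90.6%, 91.1% and 89.8%. On BV2, among targets full on N18, they were 77.1%, 77.7% and 74.0%. The sources used here do not say what this number stands for.

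**Figure D4:**
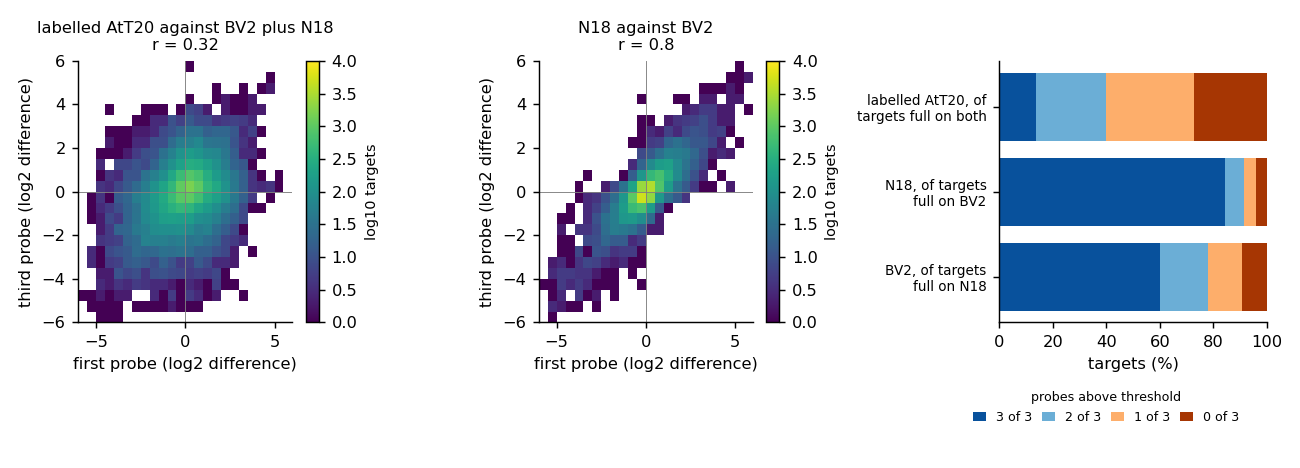
Left and middle, log2 difference of the first against the last probe of each target, for AtT20 against the mean of BV2 and N18 and for N18 against BV2, with color for the log10 number of targets in a bin and values past the axes placed in the outermost bins. Right, share of targets by the number of their 3 probes present in a line, for targets with all 3 present ("full") in the line or lines named. The cloud is round for the plates labelled AtT20 (r = 0.32) and narrow for N18 against BV2 (r = 0.8).

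By the rule that every probe must agree, 2494 genes and targets were higher (9.93%) and 2512 lower (10.0%) on the plates labelled AtT20, of which 1296 and 1698 had a symbol. For comparison, N18 against BV2 gave 1592 higher (6.34%) and 1161 lower (4.62%). Against BV2 alone 1937 were higher (7.71%) and 2226 lower (8.86%), and against N18 alone 2227 (8.86%) and 2496 (9.93%). The 2 comparisons share the plates labelled AtT20. The call was higher in both for 1448, lower in both for 1438, and opposite for 7 and 10. All these counts rest on 1 spread shared by the lines. With a separate spread for each line, AtT20 against both lines gave 1693 higher and 1879 lower. N18 against BV2 then rose from 2753 calls to 5906, so that comparison no longer had the fewer calls. The split between higher and lower depended on the scaling. Without normalization 90.2% of the calls were higher, relative to the seminal proteins 11.5%, with equal median and range 56.1%, and after quantile normalization 49.8%. The median difference over all genes moved by 0.84, -0.56 and 0.13 from that after quantile normalization in the first 3. A total of 619 genes and targets were called higher under all 4 scalings, of which 263 had a symbol, and 894 were called lower, 544 with a symbol.

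Calls differed in kind between the directions. Of the 2512 lower, 1901 had no probe present on the plates labelled AtT20 and 1696 had every probe present on both BV2 and N18. Of the 2494 higher, 660 had every probe present on the plates labelled AtT20, and 722 had none there. Of the 619 higher under all 4 scalings, 130 had every probe present on the plates labelled AtT20, 62 of them with a symbol, while 260 had no probe present in any line.

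A first group of higher genes had every probe present on the plates labelled AtT20, by the mean of the 4 plates. The leading genes are the 12 of largest difference in each direction that met a rule on plates, probes and scalings, and 336 genes met it upward. Nefl had levels of 4.82, 4.9, 3.93 and 4.05 on the plates labelled AtT20, 0.15 to 0.3 on BV2 and -0.19 to -0.03 on N18. Its 3 probes differed by 4.83 to 5.64, and it was at least 23.1-fold higher (adjusted p = 1.86e-12, limma). Stk26, a kinase of the germinal center kinase group, had levels of 4.02, 3.92, 2.35 and 3.01, and at most -0.05 on the other plates. It was at least 11.9-fold higher (adjusted p = 1.88e-11). Pls1, an actin-bundling plastin, was at least 6.79-fold higher, with levels of 3.66, 2.69, 1.47 and 1.78. Slc4a4, a sodium bicarbonate cotransporter, had levels of 2.46, 1.77, 1.14 and 0.77 and was at least 3.97-fold higher. Hspa1b, a heat-inducible Hsp70, had levels of 2.98, 3.46, 2.11 and 2.2 and was at least 7.88-fold higher, but its probes differed by 1.28 to 5.11, and of the 12 it was the only one not called under all 4 scalings. The last probe of Hspa1b was at 0.21 on plate 3, below that plate's threshold of 0.37. These 5 genes had no probe present on BV2 or N18.

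Among the other leading genes were a growth factor and several transcription factors. Fgf9, a secreted fibroblast growth factor, had levels of 3.95, 3.52, 2.64 and 2.79 on the plates labelled AtT20, 0.43 to 0.64 on BV2 and 0.27 to 0.36 on N18, a difference of 3.82. Tfap2a, a factor of neural crest and epidermis, had levels of 3.26, 3.16, 2.38 and 2.38 and at most 0.39 elsewhere, with 2 of 3 probes present. Tsc22d3, a gene induced by glucocorticoids, had levels of 4.76, 4.4, 3.17 and 3.65, against 0.7 to 1.29 on BV2 and 2.33 to 2.87 on N18. On 11 of these 12 genes every probe was present on the plates labelled AtT20.

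The other 4 of the 12 were Hox genes, the homeobox factors that set position along the body axis. Hoxc4 had levels of 5.05, 4.6, 3.67 and 3.55 on the plates labelled AtT20, 0.73 to 1.14 on BV2 and 1.69 to 2.25 on N18, a difference of 3.90 (adjusted p = 3.59e-10). Hoxb2 had 3.82, 3.5, 2.53 and 2.69, with at most 0.57 on the other plates. Hoxb3 differed by 3.38 and Hoxc8 by 3.26. The whole family was then read, a choice made after its values were seen. Of 38 Hox genes matched, 18 were called higher and 0 lower, 11 of them higher under all 4 scalings. The shares over all genes and targets were 9.93% higher, 10.0% lower, and 2.46% higher under all 4 scalings. Every probe was present for 14 on the plates labelled AtT20, for 2 on BV2 and for 8 on N18, and 7 had no probe present on the plates labelled AtT20. The median difference of the family was 1.59. Members of each of the 4 clusters were among the called, such as Hoxa6 (2.91), Hoxb6 (3.05) and Hoxd4 (2.58), while Hoxb9, Hoxc5 and Hoxc13 were between -0.23 and 0.03 and were not called.

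**Figure D5:**
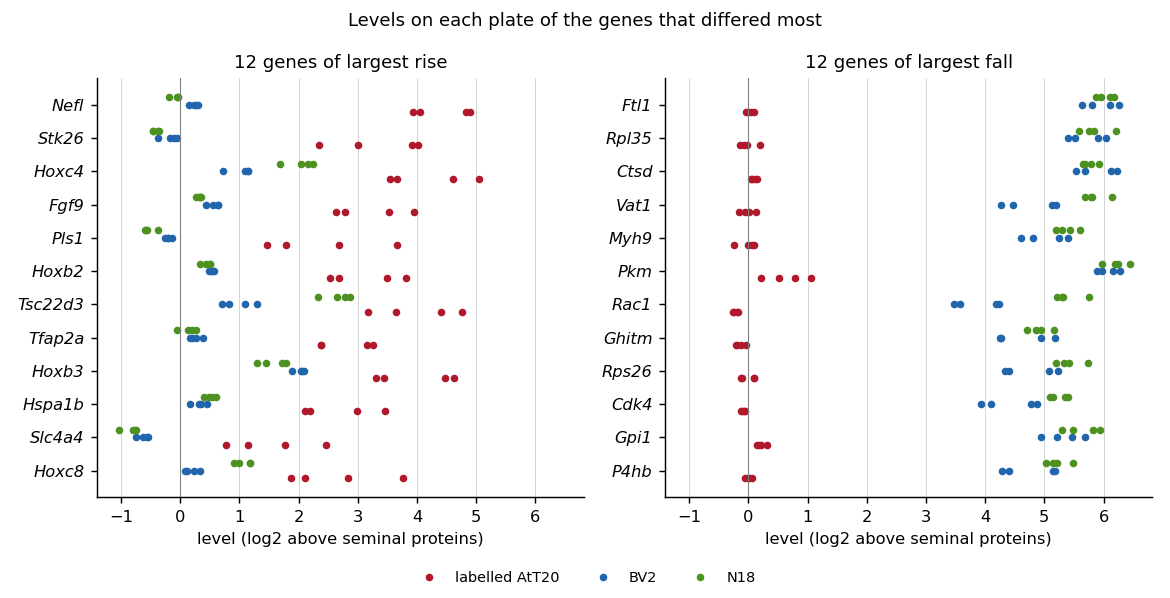
Level on each plate, in log2 above the seminal proteins, of the 12 genes of largest difference in each direction. Each point is 1 plate. On the left the plates labelled AtT20 lie above every BV2 and N18 plate for all 12 genes, and on the right they lie between -0.26 and 1.06 while BV2 and N18 lie at 3.47 or higher. These genes were picked for a separation of all plates after quantile normalization, so the separation is no test.

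The leading lower genes were abundant genes of most cells. Ftl1, the ferritin light chain that stores iron, had levels of 0, 0.1, -0.04 and 0.04 on the plates labelled AtT20, 5.63 to 6.26 on BV2 and 5.87 to 6.18 on N18. It was at least 17.2-fold lower, with probes from -5.48 to -5.11 (adjusted p = 1.03e-12, limma). The ribosomal protein gene Rpl35 was at least 15.2-fold lower and Rps26 at least 9.39-fold. Ctsd, a lysosomal protease, was at least 15.5-fold lower, with levels of 0.05 to 0.14 against 5.53 to 6.23. Vat1, Myh9, the heavy chain of nonmuscle myosin, and Gpi1, an enzyme of glycolysis, were at least 11.1-fold, 10.1-fold and 12.2-fold lower. Rac1, a small GTPase of the cytoskeleton, had levels of -0.18, -0.25, -0.26 and -0.19 on the plates labelled AtT20 and 3.47 to 5.75 on the others. Cdk4, the kinase of the G1 phase, was at least 7.6-fold lower, Ghitm at least 7.35-fold and P4hb, a protein disulfide isomerase, at least 8.5-fold. Pkm, the pyruvate kinase of most dividing cells, had 1 of 3 probes present on the plates labelled AtT20 and differed by -4.44. It was the 1 of these 12 not called under all 4 scalings. All 12 had every probe present on BV2 and on N18, 11 had none present on the plates labelled AtT20, and 691 genes met the rule downward.

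Few genes with a symbol were present by every probe on the plates labelled AtT20 and in no other line. Of 763 genes with every probe present there, 605 (79.3%) had every probe present in at least 1 other line, and 470 in both. Of the 763, 34 had no probe present on BV2 or N18, a choice that fixes their direction, so their values are given without a test. They included, beside Nefl, Stk26 and 5 Hox genes, the growth factors Fgf2 and Fgf16 at mean levels of 1.19 ± 0.29 and 1.41 ± 0.61 (SD, n = 4). The glypicans Gpc3 and Gpc4, cell surface proteoglycans that bind growth factors, were at 2.03 ± 0.88 and 1.57 ± 0.84. Of the transcription factors on the list, Nr2f1 was at 1.64 ± 0.51, Pou3f3 at 1.37 ± 0.38 and Sox3 at 0.98 ± 0.41. These genes were picked after their values were seen. Cadps2, which primes dense-core vesicles for release, was at 1.96 ± 0.54.

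Read by agreement of separate probes, the plates labelled AtT20 therefore showed neither Pomc, Tbx19 and Pcsk1 nor the granule genes of a corticotroph above the threshold in every probe. No line had every probe present for a full list of any of the 22 cell types. BV2 reached 8 of 14 microglia and macrophage genes and N18 8 of 10 sympathetic neuroblast genes. The plates labelled AtT20 reached at most 3 of 12, for neuronal genes, and no cell type is named for them here. Over all genes and targets every probe was present for 22.8% on BV2, 30.8% on N18 and 5.38% on the plates labelled AtT20. Of 19 genes that every cell uses, 3 were present by every probe on these plates, and the part of this in the missing markers was not tested.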

How the data were processed

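The deposited values were log2 intensities of single probes, which the authors made from Cy3 images of single-color NimbleGen arrays with NimbleScan 2.4, with no normalization between arrays stated. No background was subtracted here. Probes were grouped into targets by identifier, and targets named through RefSeq accessions. Lines were compared with limma 3.58.1 (lmFit, eBayes with a trend) in R 4.3.3, on 12 arrays that shared 1 estimate of the spread. A gene's p was the largest of its probes' p values, or 1 where signs differed. Lower bounds of a fold used the threshold of the seminal probes after quantile normalization. Lists held 282 genes, of which 269 were matched. Members and lists were chosen with earlier results of these data known. Leading genes had to differ on every plate and in every probe and keep their direction without normalization and relative to the seminal proteins. List members were named for the size of a called difference or presence in every probe. Other genes, among them the Hox family and those absent from both other lines, were named after their values were seen. Results of some single genes are not reported here. Plates were separately grown, and precision is limited by having 4 arrays of each line. Alternatives covered scaling, background correction (normexp, offset 50), spread, replicate block, probe rule, filter, thresholds and leaving out each plate. The fit was tested on simulated data. Figures were drawn with matplotlib 3.10.9, and tables made with pandas 2.3.3 in Python 3.11.15.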

Additional observations from a re-analysis of the deposited data

Results flagged for a closer look

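Groups of 4 plates were examined for a plate far from the other 3, by the gap to its neighbour as a share of the range, against Dixon's critical value. Of 33 such groups 2 held one, where chance gives about 1 in 20. The median log2 intensity of plate 3 labelled AtT20 was 11.5, with 10.85, 10.85 and 10.86 on the other plates of that label. The level of Tbx19 on plate 1 labelled AtT20 was -0.06, with 0.04 to 0.06 on the others, a gap that is small beside the levels of 1.19 to 1.55 in BV2 and N18.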

How the results depend on the processing

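The counts of called genes depended most on the scaling and on the probe rule. Without normalization between arrays 12724 were higher and 1376 lower on the plates labelled AtT20, and relative to the seminal proteins 1002 and 7678. With at least 2 probes passing they were 7697 and 6551, and with a gene's probes averaged 11173 and 8112. Among genes above the threshold in at least 1 line 729 were higher, and with a difference of at least 1, 1566. Leaving out 1 plate gave 2190 to 2632 higher and 2343 to 2585 lower. The calls of N18 against BV2, 2753 in all, became 4819 without normalization, 5773 relative to the seminal proteins, 1213 with equal median and range, 5906 with a separate spread for each line, 5427 with 2 probes and 10422 with the mean, and 2132 to 3377 without 1 plate. AtT20 against BV2 gave 4163, then 15047 without normalization, 12439 with 2 probes, 18183 with the mean, and 3353 to 4507 without 1 plate. AtT20 against N18 gave 4723, then 13215, 9187 relative to the seminal proteins, 13634 with 2 probes, 18927 with the mean, and 3982 to 5148 without 1 plate. The share of genes whose probes shared a sign, 49.2% for AtT20, was 72.4% without normalization, 57.6% relative to the seminal proteins, 47.2% with equal median and range, 48.3% with normexp and 48.2% to 49.6% without 1 plate. For N18 against BV2 it was 67.3%, 67.4%, 61.7% with equal median and range, and 62.8% to 64.8% without 1 plate. Without normalization the share for AtT20 was thus the higher. Genes present in every probe on the plates labelled AtT20 numbered 787 with olfactory receptor probes as controls, 890 at 3 SD, 730 with every plate above its threshold, 8151 by the mean of probes, and 1186 to 1499 without 1 plate. With olfactory receptor probes BV2 had 3350 and N18 4640, by the mean of probes 12653 and 13190, and without 1 plate 5361 to 6331 and 7420 to 7948.

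Members of the cell type lists called higher, 32, became 126 without normalization, 13 relative to the seminal proteins, 98 with 2 probes and 123 with the mean, and those lower, 21, became 13, 53, 46 and 58. In the corticotroph list 2 were higher relative to the seminal proteins, with equal median and range or with a separate spread. None (0) was lower without normalization, with equal median and range, with normexp or with a separate spread, and 2 relative to the seminal proteins, with 2 probes or with the mean. Of the genes of all cells 1 was higher without normalization and with equal median and range, and 2 with 2 probes. Of the same list 15 were lower relative to the seminal proteins, 2 with equal median and range, 15 with 2 probes and 17 with the mean. The cause of these moves was not tested. Of the 91 named genes' 2062 alternative values, 1853 kept their direction and side of the threshold, 182 lost the call, 14 gained one and 13 reversed. With equal median and range Actb turned to 5.70 with 1 of its probes at the upper limit, Eef1a1 to 2.53, Elavl3 to 0.25, Gapdh to 1.43 and Tpt1 to 1.36. Relative to the seminal proteins Gata1 turned to -0.26, Hand2 to -0.71, Mcm6 to -1.24, Plk1 to -0.45 and Pomc to -0.33. S100a4 turned to 0.21 without normalization, Elavl3 to 0.03 without plate 1 of AtT20 (-0.20 to 0.03 over the plates left out) and Mcm6 to -0.03 without plate 1 of N18 (-0.03 to 0.22).

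Equal plate numbers did not pair the samples, since deviations of same-numbered plates correlated at -0.21 to 0.2. With the replicate block 2443 were higher and 2469 lower, and the counts of the pairs of lines stood at 4075, 4643 and 2675. Signal over background limits what the narrow range of the plates labelled AtT20 can show, and of the 2494 genes and targets called higher 693 had no probe above the threshold in any line.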
